A study of Homo sapiens with 4 samples.

Results

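Gene expression was compared across all genes between HEC-1-A cells and RL-95-2 cells, which are established lines of human endometrial cancer. All 4 libraries of the series entered the comparison, 2 of HEC-1-A and 2 of RL-95-2, chosen by the cell line in their labels. In each line, 1 library came from cells transfected with a negative control of a mimic and 1 from cells transfected with a tRF-20-S998LO9D mimic (the tRF being a fragment of a tRNA), so that all 4 libraries came from transfected cells. Poly(A) RNA was sequenced. The transfection was a term of the model and its own effect is not described. Values given in pairs are those of the control and then the mimic library, in CPM (counts scaled to a common library size).

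HEC-1-A is known as a line from an endometrial adenocarcinoma, and RL-95-2 as a line from an adenosquamous carcinoma of the endometrium, a tumour with gland-like and squamous parts. The lining of the uterus arises from the Mullerian duct, whose cells are known to use transcription factors such as PAX2, PAX8, EMX2 and HOXA10, while squamous cells use TP63 and keratins of the basal and upper layers. Epithelial cells of either kind carry keratins, E-cadherin and EPCAM, and lose part of them when they take on mesenchymal traits.

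Library totals ranged from 33575882 to 46220053 counts, and 17016 to 17640 features had at least 1 count. A count of 0 allows up to 3 counts, or 0.0906 and 0.0670 CPM in the HEC-1-A libraries and 0.0769 and 0.0609 CPM in the RL-95-2 libraries. Such limits and the counting intervals below cover counting error only. Across genes, log2(CPM + 1) correlated at a Pearson r of 0.997 between the HEC-1-A libraries, 0.986 between the RL-95-2 libraries and 0.896 to 0.900 between lines. These are correlations across genes, which are not independent replicates. Nothing in the labels tells whether a line's libraries were grown as separate cultures, and they differ in transfection. The p-values therefore measure only how unequal the line difference was in the controls and in the mimics, moderated over genes, and do not cover the spread between cultures.

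Markers of the labelled tissue were present in part. PAX8, a Mullerian transcription factor, stood at 332 and 353 CPM in HEC-1-A and at 293 and 220 CPM in RL-95-2. EPCAM, an epithelial surface protein, was at 258 and 233 against 162 and 139 CPM, and CDH1, which encodes E-cadherin, at 149 and 153 against 204 and 208 CPM. None of the 3 passed the test (adjusted p = 0.26, 0.063 and 0.19 by edgeR). EPCAM passed with DESeq2 and without either RL-95-2 library, CDH1 passed without either RL-95-2 library, and PAX8 passed without the RL-95-2 control library. PGR, the progesterone receptor, and SOX17, a Mullerian and endodermal factor, had 0 counts in all 4 libraries. EMX2 had 0 counts in HEC-1-A and was at 0.820 and 0.730 CPM in RL-95-2, and PAX2 was at 19.3 and 15.1 against 0.102 and 0.162 CPM. ESR1, the estrogen receptor alpha, was below 1 CPM in each (0.362 and 0.670 against 0.974 and 0.811 CPM). Markers of other cell types were low as whole lists. The 14 leukocyte markers summed to 3.32 to 4.98 CPM per library in HEC-1-A and 7.10 to 9.61 CPM in RL-95-2, with CD3D, MS4A1 and FCGR3A at 0 in all libraries. The 6 erythroid markers summed to at most 0.203 CPM. The 12 stromal markers summed to 19.2 to 25.9 CPM in HEC-1-A and 65.1 to 89.8 CPM in RL-95-2, where COL1A1 made up most of the sum and DCN and COL1A2 had 0 counts.

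Of 15957 genes tested, 2671 (16.7%) were higher in HEC-1-A and 2923 (18.3%) were higher in RL-95-2 (edgeR quasi-likelihood test, Benjamini-Hochberg FDR 0.05). These 2 shares are the background for the counts of gene lists below. The 4-fold rule used the fitted fold, also for the 847 genes called with 0 counts in both libraries of a line. For some of those, such as IL12RB1 (log2 -1.74), the floor of 3 counts gave less than 4-fold. By this rule, at least 4-fold differences were called for 1507 genes (9.44%) higher in HEC-1-A and 1670 (10.5%) higher in RL-95-2. Of these 3177 genes, 2804 (88.3%) were at least 4-fold apart in the controls and again in the mimics, and 0 had opposite signs there. The fit on the same libraries picked these genes, which favours agreement between the transfections, so this is not replication. Over all genes tested, 64 (0.401%) were at least 2-fold apart in opposite directions in the 2 transfections. The median log2 fold change, HEC-1-A minus RL-95-2, was -0.01. The number of calls depended on which libraries gave the spread. Without the HEC-1-A mimic or control library, when the 2 RL-95-2 libraries alone gave it, 1608 or 1780 genes were higher in HEC-1-A and 1851 or 1897 in RL-95-2. Without the RL-95-2 mimic or control library, when the HEC-1-A libraries alone gave it, the numbers were 4869 or 5156 and 5179 or 5390.

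**Figure D1:**
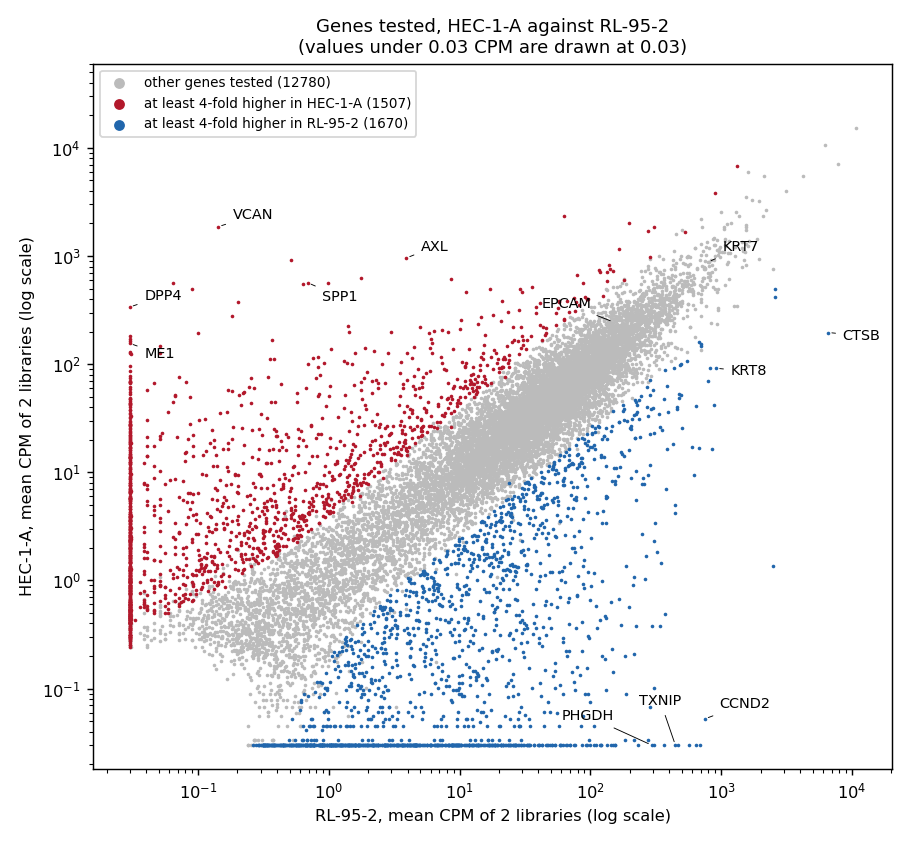
Mean CPM of the 2 libraries of HEC-1-A (vertical, log scale) against RL-95-2 (horizontal, log scale), 1 point per gene tested, with the 1507 and 1670 genes called and at least 4-fold apart in colour. Genes along the left and lower edges had 0 or nearly 0 counts in a line, among them DPP4 and ME1 in RL-95-2 and TXNIP and PHGDH in HEC-1-A, while KRT7 and EPCAM lie near the diagonal.

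Among members tested, squamous and cornification genes were mostly higher in RL-95-2. The low-count filter worked by line, so members with 0 counts in HEC-1-A were tested through RL-95-2 alone. The share and median below include them. Of 38 members 24 were tested; 16 (66.7%) were higher in RL-95-2 and 2 in HEC-1-A (1 without the HEC-1-A mimic library), and the median log2 fold change was -5.11, or -3.46 with genes at 0 counts set to their bound. TP63, the transcription factor that specifies squamous and basal epithelium, was at 0.0906 and 0.0893 CPM in HEC-1-A and at 226 and 150 CPM in RL-95-2, a fitted 1960-fold difference (log2 -10.94, SE 0.39, n = 2 per line, adjusted p = 8e-05 by edgeR). Both RL-95-2 libraries lay far above both HEC-1-A libraries. DSC3, a desmosomal cadherin of basal squamous cells, had 0 counts in HEC-1-A and 140 and 129 CPM in RL-95-2, at least 1711-fold higher. KLK5, a protease of the cornified layer, had 0 counts against 121 and 91.7 CPM (at least 1353-fold). S100A9, a calcium-binding protein induced in activated keratinocytes, had 0 counts against 82.6 and 157 CPM (at least 1518-fold). IVL, which encodes the cornified envelope protein involucrin, had 0 counts against 21.2 and 11.9 CPM (at least 210-fold), and SERPINB5, a serpin of basal epithelia, was at 0.0906 and 0.0893 against 82.0 and 100 CPM. Other genes of the cornified layer reached low levels in RL-95-2, SPRR3 being at 1.10 and 1.30 CPM, SPRR1B at 0.948 and 0.304 CPM, both with 0 counts in HEC-1-A, and the profilaggrin gene FLG at 10.5 and 6.88 CPM.

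Most keratins called were higher in RL-95-2. Keratins pair as type I and type II chains: KRT8 with KRT18 in simple epithelia, and KRT5 with KRT14 in basal squamous cells. Per length, in FPKM (read fragments scaled to transcript length and library depth, mean of 2 libraries), KRT7 led in HEC-1-A at 437, followed by KRT18 at 188, KRT80 at 128, KRT19 at 99.6 and KRT8 at 40.4. In RL-95-2, KRT18 led at 558, followed by KRT8 at 450, KRT7 at 406, KRT19 at 262 and KRT13 at 176. These are levels and not differences. KRT8 and KRT13 differed widely between the RL-95-2 libraries, so the RL-95-2 order is one of means and need not hold in each library. Of 8 type I keratins tested, 6 were higher in RL-95-2 and 0 in HEC-1-A (median log2 fold change -3.05). The RL-95-2 number was lower without the HEC-1-A mimic or control library, where the log2 fold change of KRT19 was -1.16 or -1.5. Of 8 type II keratins, 4 were higher in RL-95-2 and 2 in HEC-1-A (median -1.80; 1 without either HEC-1-A library). Among all keratins, 8 of 26 type I and 10 of 26 type II genes had 0 counts everywhere.

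KRT8 was at 100 and 83.2 CPM in HEC-1-A and at 388 and 1444 CPM in RL-95-2 (log2 -3.04, SE 0.56, adjusted p = 0.0079 by edgeR) and both RL-95-2 libraries lay above both HEC-1-A libraries while differing widely between themselves. Its partner KRT18 was at 370 and 296 against 840 and 1067 CPM (log2 -1.52, SE 0.30), a call lost without the HEC-1-A mimic library (log2 -1.37). KRT13, a keratin of the upper layers of moist squamous epithelium, was at 3.86 and 2.90 against 93.2 and 535 CPM (log2 -6.06, SE 0.78). KRT5, the basal keratin, had 0 counts in HEC-1-A and 9.17 and 52.5 CPM in RL-95-2. KRT14, its usual partner, had 0 counts in 3 libraries and 0.243 CPM in the RL-95-2 mimic library, too low to be tested. KRT15, another basal type I chain, was at 3.23 and 4.62 against 35.3 and 96.9 CPM. KRT80 went the other way, at 553 and 582 CPM in HEC-1-A against 157 and 19.2 CPM in RL-95-2 (log2 3.37, SE 0.77, adjusted p = 0.017 by edgeR). The KRT80 call was lost without either HEC-1-A library (log2 2.65 and 2.72) and with no transfection term (log2 2.69). KRT7 did not pass the test, at 989 and 767 against 878 and 704 CPM (log2 0.15, SE 0.27).

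**Figure D2:**
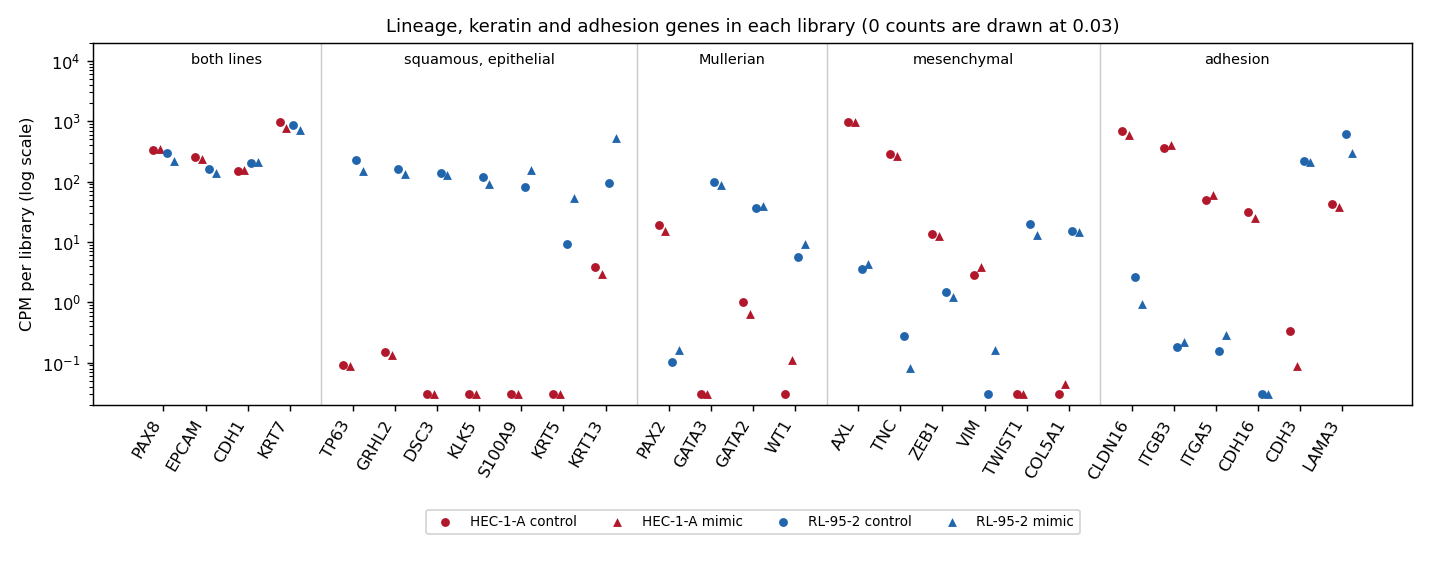
CPM (log scale) of lineage, keratin and adhesion genes in each library, red for HEC-1-A and blue for RL-95-2, circles for the control and triangles for the mimic transfection. The 4 genes on the left overlap or nearly overlap between lines, while for the other genes the 2 libraries of a line lie apart from those of the other line.

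Epithelial identity genes, EPCAM and CDH1 included, were called in 12 of 26 members, 11 higher in RL-95-2 and 1 in HEC-1-A (median log2 fold change -0.50). The RL-95-2 number was higher without an RL-95-2 library. It was lower without the HEC-1-A mimic or control library, where the log2 fold change of the member GRHL1 was -1.61 or -1.34. Without the RL-95-2 control or mimic library the HEC-1-A number was 6 or 4. GRHL2, a transcription factor that maintains epithelial genes, was at 0.151 and 0.134 CPM in HEC-1-A and 164 and 135 CPM in RL-95-2 (1022-fold, adjusted p = 8e-05 by edgeR). OVOL1 and EHF, also epithelial transcription factors, were at 0.211 and 0.447 against 29.6 and 18.7 CPM and at 0 and 0.179 against 35.3 and 20.6 CPM. ELF3 was expressed in both lines, at 26.0 and 25.1 against 574 and 421 CPM (19.2-fold). Desmoplakin (DSP) was at 422 and 424 against 338 and 360 CPM and ESRP2, a splicing regulator of epithelial cells, at 71.4 and 70.6 against 82.3 and 94.0 CPM. Neither was called in the fit of all 4 libraries.

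Mesenchymal state genes differed in both directions. Of 23 tested, 7 were called higher in HEC-1-A and 10 were higher in RL-95-2, all at least 4-fold. Their median of -0.90 turned to 0.38 when only genes with at least 1 CPM in 2 libraries were tested. AXL, a receptor tyrosine kinase linked to mesenchymal traits, was at 958 and 962 CPM in HEC-1-A and 3.54 and 4.30 CPM in RL-95-2 (246-fold, log2 7.94, SE 0.36). TNC, the matrix protein tenascin C, was at 284 and 268 against 0.282 and 0.0811 CPM (log2 10.64, SE 0.50), and ZEB1, a repressor of E-cadherin, at 13.4 and 12.5 against 1.49 and 1.22 CPM (9.60-fold). MSN, the cortical linker moesin, was 7.61-fold and S100A4 8.46-fold higher in HEC-1-A. VIM, the mesenchymal filament vimentin, was low in both, at 2.87 and 3.8 against 0 and 0.162 CPM. On the RL-95-2 side, TWIST1 had 0 counts in HEC-1-A and 20.1 and 13.2 CPM in RL-95-2, TWIST2 0 counts against 16.1 and 21.1 CPM, and SNAI2 1.81 and 3.24 against 53.8 and 55.7 CPM (22.3-fold). All 3 encode transcription factors that repress epithelial genes. COL5A1, a fibrillar collagen chain, was at 0 and 0.0447 against 15.1 and 14.9 CPM, a ratio of 583 with a 95% counting interval of 161 to 4822. CDH2, which encodes N-cadherin, was not called (3.26 and 4.09 against 1.72 and 4.58 CPM).

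Among the 300 most expressed features, versican (VCAN), a matrix proteoglycan, was at 1915 and 1819 CPM in HEC-1-A and 0.102 and 0.183 CPM in RL-95-2 (log2 13.63, SE 0.51, adjusted p = 8e-05 by edgeR). ASPH, an aspartate hydroxylase, was at 2013 and 2037 against 166 and 226 CPM (10.5-fold). In the other direction, the lysosomal protease gene CTSB was at 192 and 200 against 6850 and 6338 CPM (33.6-fold), MT2A, a metallothionein, at 61.5 and 79.5 against 774 and 802 CPM (11.3-fold), and PCDH1, a protocadherin, 8.53-fold higher in RL-95-2. In none of these genes did the libraries of the lines overlap.

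Adhesion genes followed different members in each line. Of 25 classical cadherins and integrin chains tested, 7 were higher in each line. They were lower without a HEC-1-A library and higher without an RL-95-2 library. ITGB3, the beta 3 integrin chain, was at 356 and 403 CPM in HEC-1-A and 0.179 and 0.223 CPM in RL-95-2 (log2 10.86, SE 0.38), and ITGA5, the fibronectin receptor chain, at 48.8 and 60.4 against 0.154 and 0.284 CPM. CDH16, a cadherin known from kidney epithelium, was at 31.8 and 24.7 CPM against 0 counts (at least 410-fold). In RL-95-2, CDH3, the placental cadherin of basal epithelia, was at 223 and 211 CPM against 0.332 and 0.0893 CPM (1102-fold). LAMA3 and ITGB4, which encode a laminin chain and an integrin chain of hemidesmosomes, were 10.8-fold and 4.30-fold higher in RL-95-2, the ITGB4 call being lost without the HEC-1-A mimic library (log2 -2.10). CDH5, the cadherin of endothelial cells, had 0 counts in HEC-1-A and 14 and 24.5 CPM in RL-95-2. The 10 endothelial markers together summed to 0.423 to 0.871 CPM in HEC-1-A and 20.4 to 36.8 CPM in RL-95-2, where CDH5 and ERG (4.18 and 9.31 CPM) made up most of it. PECAM1, KDR and EMCN, which define endothelial cells, had 0 counts in RL-95-2.

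Claudins, the seal-forming proteins of tight junctions, were called in 5 of 14 tested members, all 5 higher in HEC-1-A. Without an RL-95-2 library, 8 or 7 were higher in HEC-1-A and 2 were lower. CLDN16, known for magnesium handling in the kidney, was at 680 and 582 CPM in HEC-1-A and 2.59 and 0.933 CPM in RL-95-2 (397-fold). CLDN2, a pore-forming claudin, was at 32.2 and 16.6 against 0.231 and 0.284 CPM (87.5-fold), and CLDN3 at 28.0 and 26.8 against 2.95 and 1.54 CPM (12.8-fold). CLDN1 spread widely in RL-95-2 (1425 and 1770 against 793 and 114 CPM) and did not pass the test (adjusted p = 0.052 by edgeR). It passed with DESeq2, limma-voom and limma on FPKM, and without either RL-95-2 library (log2 1.0 and 3.82).

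Among members tested, Mullerian and uterine transcription factors were mostly called higher in RL-95-2, with a HEC-1-A share near that of all genes (17.4% beside 16.7%). Of 28 genes, 23 were tested; 14 (60.9%) were higher in RL-95-2 and 4 in HEC-1-A (median log2 fold change -1.78). PAX2, a factor of Mullerian and kidney epithelium, was at 19.3 and 15.1 CPM in HEC-1-A against 0.102 and 0.162 CPM (124-fold). On the other side, GATA3, a factor of squamous and luminal epithelium, had 0 counts in HEC-1-A and 97.3 and 88.0 CPM in RL-95-2 (at least 1176-fold). GATA2, which acts with the progesterone receptor in the uterus, was at 1.03 and 0.648 against 36.5 and 39.8 CPM (46.4-fold), and TBX3, a T-box factor, at 0.543 and 0.469 against 12.2 and 24.2 CPM. WT1 was at 0 and 0.112 against 5.66 and 9.29 CPM and IRX5 at 0.332 and 0.357 against 6.28 and 7.12 CPM. Of 33 HOX genes tested, 15 (45.5%, beside 18.3% of all genes) were higher in RL-95-2. Members with 0 counts in HEC-1-A, such as HOXD10 to HOXD12, were tested through RL-95-2 alone and are in this share. The RL-95-2 number was 11 with DESeq2 or at a minimum of 1 CPM in 2 libraries, 13 with no filter, and 16 with limma-voom. In HEC-1-A it was 3 (9.09%, beside 16.7%), and more without the RL-95-2 mimic library. The 3 were HOXA2, HOXA3 and HOXA4, neighbours in the HOXA cluster, at 17.3-fold, 4.59-fold and 26.3-fold. HOXA9 and HOXA11, which lie further along that cluster and pattern the oviduct and uterus, were 17.3-fold and 6.28-fold higher in RL-95-2. HOXA10 lay between them at 5.16 and 5.16 against 5.0 and 5.56 CPM and was not called. HOXD13 was at 0 and 0.0447 against 19.2 and 23.6 CPM.

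Of 14 gland and mucin genes tested, 8 were higher in RL-95-2 and 3 in HEC-1-A (median log2 fold change -1.78). SPP1, the secreted matrix protein osteopontin, was at 542 and 590 CPM in HEC-1-A and 0.487 and 0.892 CPM in RL-95-2 (834-fold). LCN2, an iron-siderophore carrier, was at 21.1 and 11.8 against 1310 and 406 CPM (46.3-fold), and mesothelin (MSLN) at 2.02 and 1.76 against 29.0 and 31.6 CPM (16-fold). MUC4, a membrane mucin, was 8.33-fold higher in HEC-1-A, at 7.49 and 11.3 against 1.72 and 0.690 CPM.

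**Figure D3:**
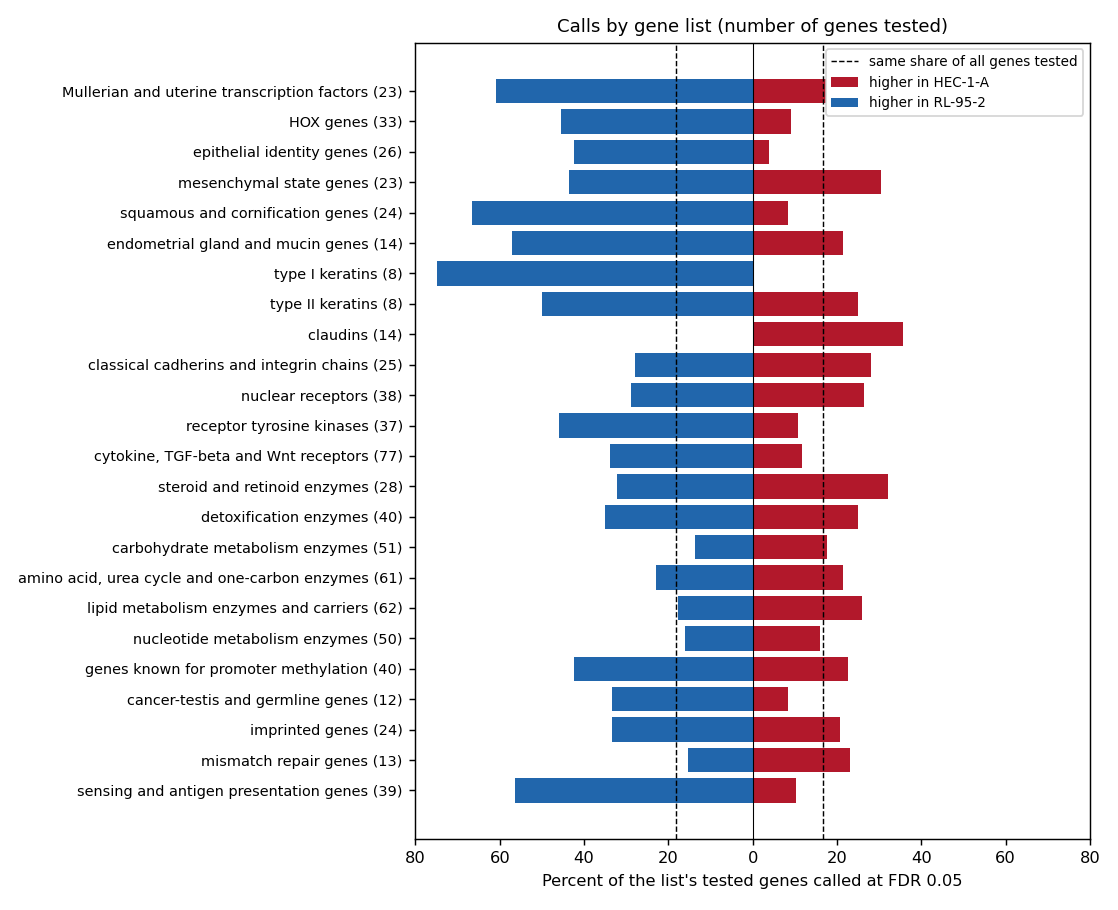
Percent of each list's tested genes called higher in HEC-1-A (right, red) or in RL-95-2 (left, blue), with dashed lines at the 16.7% and 18.3% of all genes tested. Squamous genes reach 66.7% and type I keratins 75.0% on the RL-95-2 side, claudins reach 35.7% on the HEC-1-A side, and nucleotide enzymes lie at 16% on each side. Genes undetected in a line were tested through the other line alone, and these shares include them.

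Receptor tyrosine kinases were more often called in RL-95-2, with 17 of 37 tested higher there and 4 in HEC-1-A (median log2 fold change -0.65). Without a HEC-1-A library 12 or 11 were higher in RL-95-2, and without the RL-95-2 control library 7 were higher in HEC-1-A. Besides AXL, the HEC-1-A side had FGFR4, at 84.5 and 118 against 9.99 and 12.4 CPM (8.99-fold), and MET, the receptor of hepatocyte growth factor, at 1019 and 992 against 369 and 296 CPM (3.04-fold). IGF1R, the receptor of insulin-like growth factors, was at 18.1 and 14.8 against 110 and 107 CPM (6.6-fold higher in RL-95-2, log2 -2.72, SE 0.24, adjusted p = 0.00042 by edgeR). EPHA4 and EPHB3, receptors of ephrins, were 92.9-fold and 54.8-fold higher in RL-95-2, and MERTK, a relative of AXL, was at 7.52 and 7.86 against 96.1 and 28.1 CPM (6.74-fold). PTK7, a Wnt co-receptor, was 10.5-fold higher there. EGFR and ERBB2, the receptors most studied in carcinomas, were not called. EGFR was at 1050 and 1127 against 2152 and 876 CPM, so that the HEC-1-A libraries lay between the RL-95-2 libraries, and its log2 fold change turned from -0.34 to 0.32 without the RL-95-2 control library. ERBB2 was at 144 and 135 against 148 and 174 CPM.

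Nuclear receptors, transcription factors switched by steroids and other lipids, were called in both directions (10 of 38 tested higher in HEC-1-A, or 16 without the RL-95-2 control library, and 11 in RL-95-2). Their median of 0.11 had no stable sign, being -0.03 on FPKM, -0.12 without the HEC-1-A mimic library and -0.18 without the RL-95-2 mimic library. NR0B1, the repressor DAX1, was at 58.6 and 64.0 CPM in HEC-1-A and had 0 counts in RL-95-2 (at least 890-fold). PPARG, a receptor of fatty acid ligands, was at 6.28 and 7.80 CPM against 0.0512 CPM and 0 counts. NR1D1 and NR1D2, the clock repressors, were 29.0-fold and 9.02-fold higher in HEC-1-A. In RL-95-2, RARB and RARG, retinoic acid receptors, were at 11.5 and 18.9 CPM against 0.151 CPM and 0 counts, and at 184 and 149 against 23.5 and 35.5 CPM (5.72-fold). NR2F2, a receptor of the uterine stroma and other tissues, was 6.43-fold, VDR, the vitamin D receptor, 3.63-fold and NR3C1, the glucocorticoid receptor, 2.76-fold higher in RL-95-2.

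Of 77 cytokine, TGF-beta, Wnt and Notch receptors tested, 26 (33.8%) were higher in RL-95-2 and 9 (11.7%) in HEC-1-A (median log2 fold change -0.19). Of all genes it was 18.3% and 16.7%. Without a HEC-1-A library the RL-95-2 number was 17 and the HEC-1-A number 5 or 4, and without an RL-95-2 library the HEC-1-A number was 23 or 24. OSMR, the oncostatin M receptor chain, was at 0.0604 CPM and 0 counts in HEC-1-A and at 113 and 86.0 CPM in RL-95-2, a ratio of 3812 with a 95% counting interval of 1055 to 31482. NOTCH3 was at 6.61 and 7.53 against 456 and 296 CPM (52.0-fold), the death receptor TNFRSF21 23.7-fold and the interleukin 4 receptor chain IL4R 9.15-fold higher in RL-95-2. LEPR, the leptin receptor, was at 66.6 and 75.5 CPM in HEC-1-A against 2.56 and 1.99 CPM (31.4-fold).

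In the fit described here, carbohydrate and nucleotide enzymes were called at shares near the background, while single enzymes were present in a line and at 0 counts in the other. Carbohydrate enzymes were called in 9 and 7 of 51 tested (17.6% higher in HEC-1-A, 13.7% in RL-95-2), nucleotide enzymes in 8 and 8 of 50, amino acid and one-carbon enzymes in 13 and 14 of 61, and lipid enzymes in 16 and 11 of 62. With DESeq2, 15 carbohydrate enzymes were higher in HEC-1-A, and with limma on log2(FPKM + 0.1) 11 were higher in RL-95-2. Left-out libraries moved these numbers too. Without either HEC-1-A library 4 amino acid enzymes were higher in HEC-1-A, and without an RL-95-2 library 22 or 30. For carbohydrate enzymes it was 6 without either HEC-1-A library and 21 or 20 without an RL-95-2 library, for nucleotide enzymes 3 and 18 or 15, and for lipid enzymes 11 or 13 and 28 or 30. The RL-95-2 numbers ranged over the 4 left-out libraries from 4 to 12 for carbohydrate, 6 to 20 for nucleotide, 10 to 20 for amino acid and 7 to 17 for lipid enzymes.

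ME1, the cytosolic malic enzyme that yields NADPH, was at 138 and 174 CPM in HEC-1-A and had 0 counts in both RL-95-2 libraries, at least 2261-fold higher (chromosome 6, 83210402 to 83431051, GRCh38.p14). ME3, a mitochondrial malic enzyme, was also higher in HEC-1-A, at 34.4 and 37.8 against 4.12 and 3.33 CPM (9.72-fold). ME2 was at 176 and 179 against 119 and 80.5 CPM (1.81-fold), a call lost without either HEC-1-A library (log2 0.82 and 0.84). NNT, the transhydrogenase that makes NADPH in mitochondria, was at 38.5 and 42.3 CPM against 0 counts (at least 587-fold; chromosome 5, 43602675 to 43707396). ME2, ME3 and NNT were added to the lists after earlier results were seen.

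PHGDH, the first enzyme of serine synthesis, had 0 counts in both HEC-1-A libraries and 402 and 186 CPM in RL-95-2, at least 3731-fold higher (chromosome 1, 119711934 to 119744215). The next enzymes were present in both lines. PSAT1 was at 765 and 892 against 571 and 283 CPM (log2 1.04, SE 0.37, adjusted p = 0.071 by edgeR), and it passed with DESeq2 (1.06), with scaling by library total (0.98), on both FPKM scales (0.97 and 0.98) and without the RL-95-2 mimic (0.53) or control library (1.55). PSPH was at 118 and 144 against 79.8 and 46 CPM (2.15-fold higher in HEC-1-A), a call lost without either HEC-1-A library (log2 0.91 and 1.20). SHMT2, which turns serine into glycine in mitochondria, was not called (380 and 342 against 404 and 223 CPM). GLDC, which breaks glycine down, was at 7.09 and 8.47 against 234 and 266 CPM (32.2-fold higher in RL-95-2). CPS1, the first enzyme of the urea cycle, was at 70.3 and 69.8 against 2.46 and 1.85 CPM (32.8-fold higher in HEC-1-A), and DDC, the aromatic amino acid decarboxylase, at 67.3 and 69.3 CPM against 0 counts and 0.162 CPM. KYNU, an enzyme of tryptophan breakdown, was at 0 and 0.0893 against 38.2 and 31.2 CPM.

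In sugar handling, hexokinase 1 (HK1), which starts glycolysis, was at 8.51 and 9.25 CPM in HEC-1-A and 193 and 214 CPM in RL-95-2 (22.9-fold, log2 -4.52, SE 0.26, adjusted p = 9e-05 by edgeR). HK2 was also higher in RL-95-2, at 74.6 and 84.8 against 390 and 151 CPM (3.05-fold), a call lost without either HEC-1-A library (log2 -1.86 and -1.67). The glucose transporter SLC2A3 was at 0 and 0.134 CPM against 443 and 128 CPM, and the lactate transporter SLC16A1 at 10.4 and 11.9 against 171 and 168 CPM (15.2-fold). GALM, which converts forms of galactose, was at 22.5 and 24.6 CPM in HEC-1-A against 0 counts (at least 342-fold), and PYGB, a glycogen phosphorylase, was 5.06-fold higher in HEC-1-A.

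FADS1, the delta-5 fatty acid desaturase, was at 116 and 118 CPM in HEC-1-A and 0.461 and 1.20 CPM in RL-95-2 (148-fold), while SCD5, a delta-9 desaturase, was at 0.0604 and 0.223 against 78.5 and 65.0 CPM (466-fold higher in RL-95-2). ACSS1, the mitochondrial acetyl-CoA synthetase, had 0 counts against 28.1 and 27.4 CPM (at least 352-fold). VLDLR, a lipoprotein receptor, was at 116 and 111 against 5.84 and 2.76 CPM (28.2-fold). Among purine enzymes, XDH, the xanthine dehydrogenase, had 0 counts in HEC-1-A and 185 and 58.3 CPM in RL-95-2 (at least 1542-fold), and GDA, the guanine deaminase that yields xanthine, was at 39.8 and 39.0 against 454 and 150 CPM (6.62-fold).

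Of 28 steroid and retinoid enzymes tested, 9 were higher in each line, and of 40 detoxification enzymes 14 were higher in RL-95-2 and 10 in HEC-1-A. With each library left out in turn, the steroid number in RL-95-2 was 5 to 11 and the detoxification numbers were 8 to 17 in RL-95-2 and 9 to 16 in HEC-1-A. The AKR1C enzymes, which reduce steroids including progesterone and prostaglandins, were a HEC-1-A group. AKR1C1 was at 76.2 and 72.7 against 0.384 and 0.122 CPM (311-fold), AKR1C2 at 52.2 and 48.9 against 3.77 and 3.29 CPM (14.3-fold) and AKR1C3 at 108 and 108 against 1.18 and 1.44 CPM (82.2-fold). AKR1C1 and AKR1C2 are near-identical in sequence, so the division of reads between them is uncertain. ALDH2, the aldehyde dehydrogenase of ethanol breakdown, was at 118 and 104 against 0.589 and 0.122 CPM (348-fold), and UGT2B7, a glucuronosyltransferase, at 25.5 and 25.8 CPM against 0 counts (at least 372-fold). HSD17B11 was 159-fold higher in HEC-1-A. In RL-95-2, HSD17B2, which inactivates estradiol, was at 92.1 and 41.3 CPM against 0.241 and 0.156 CPM (317-fold), and ALDH1A3, which makes retinoic acid, at 298 and 254 against 30.7 and 35.6 CPM (8.31-fold). The retinoic acid carrier CRABP2 was 101-fold higher in RL-95-2. CYP24A1, which degrades active vitamin D, had 0 counts in HEC-1-A and 711 and 428 CPM in RL-95-2 (at least 7225-fold). CYP1B1 and CYP1A1, enzymes induced through the aryl hydrocarbon receptor, were at 0.845 and 0.491 against 275 and 58.0 CPM and at 2.14 and 6.25 against 825 and 58.4 CPM; both were lower in the RL-95-2 mimic than in its control library.

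**Figure D4:**
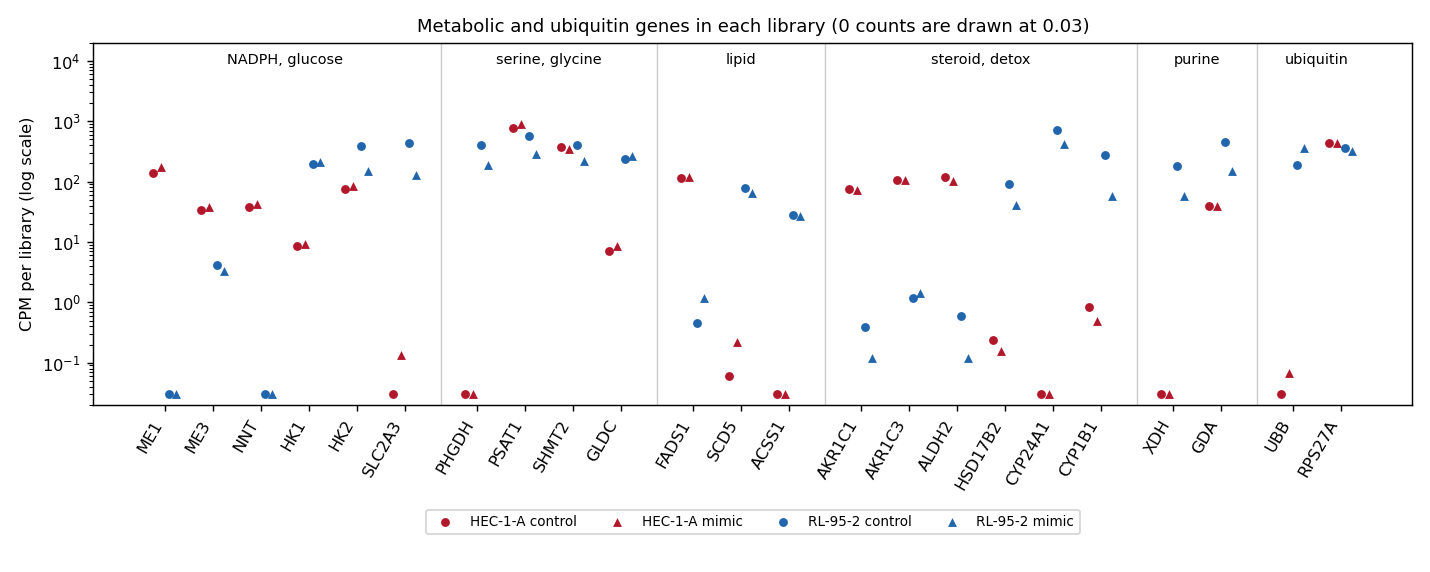
CPM (log scale) of metabolic and ubiquitin genes in each library, red for HEC-1-A and blue for RL-95-2, circles for the control and triangles for the mimic transfection. ME1 and NNT lie at 0 counts in RL-95-2, PHGDH, ACSS1, CYP24A1 and XDH at 0 counts in HEC-1-A, and UBB at 0 and 3 counts in HEC-1-A while RPS27A nearly overlaps.

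Genes detected in 1 line only were defined by at most 3 counts in each library of a line and at least 5 CPM in each library of the other. There were 111 such named genes in HEC-1-A, 87 of them with 0 counts in RL-95-2, and 193 in RL-95-2, 130 of them with 0 counts in HEC-1-A. These numbers have no test. Among the leading genes of HEC-1-A were DPP4, a surface peptidase (311 and 364 CPM against 0 counts, at least 4901-fold), SYT13, a synaptotagmin (150 and 192 CPM, at least 2480-fold), ME1, FXYD2, a subunit of the sodium pump (129 and 132 CPM), MYEF2 (122 and 134 CPM), MYO5C (102 and 91.1 CPM) and HAVCR1, the kidney injury molecule KIM-1 (72.2 and 82.4 CPM). CAV2, caveolin 2, was at 62.1 and 73.8 CPM against 0 counts, while CAV1 was at 203 and 213 against 61.6 and 185 CPM and not called (log2 0.96). CAV1 passed with limma on log2(FPKM + 0.1) (0.95) and without the RL-95-2 mimic library (1.75). Among the leading genes of RL-95-2 besides PHGDH and CYP24A1 were XYLT1, which starts glycosaminoglycan chains (517 and 412 CPM against 0 counts, at least 5895-fold), TIMP3, an inhibitor of metalloproteinases (447 and 168 CPM), PLXDC2 (305 and 159 CPM) and OLR1, a receptor of oxidised lipoprotein (408 and 317 CPM). TXNIP, a thioredoxin inhibitor induced by glucose, had 0 counts in HEC-1-A and 789 and 104 CPM in RL-95-2 (at least 5667-fold, on means of libraries that differ widely). It was at least 100 CPM in each RL-95-2 library.

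UBB, a polyubiquitin gene, was among them, at 0 and 3 counts in HEC-1-A (0 and 0.0670 CPM) and 189 and 362 CPM in RL-95-2. The ratio was 7418 with a 95% counting interval of 2538 to 35974 (chromosome 17, 16380779 to 16382745, GRCh38.p14). RPS27A, a fusion gene of ubiquitin and a ribosomal protein, was present in both lines, at 443 and 435 against 356 and 322 CPM, and was not called. Ubiquitin genes share a repeated coding unit, so reads could be divided between them in counting. The table also held 2765 features with a locus number in place of a symbol, and whether reads of an undetected gene were counted there was not tested.

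Of 40 tested genes known for promoter methylation in carcinomas, 17 (42.5%) were higher in RL-95-2, or 11 without the HEC-1-A control library, and 9 (22.5%) in HEC-1-A. SFRP1, a secreted Wnt antagonist, had 0 counts in HEC-1-A and 137 and 171 CPM in RL-95-2 (at least 1953-fold). CCND2, cyclin D2, was at 0.0604 and 0.0447 against 950 and 553 CPM, a fitted 13237-fold difference that rests on 2 counts in each HEC-1-A library. DKK1, another Wnt antagonist, was at 0.0906 CPM and 0 counts against 9.04 and 30.9 CPM. In RL-95-2, RASSF2, a RAS-binding tumour suppressor, was at 0 counts and 0.142 CPM against 5.01 and 6.81 CPM in HEC-1-A, and DKK3 at 0.307 and 0.284 against 8.12 and 11.3 CPM. GSTP1, a glutathione transferase, was at 208 and 235 against 180 and 214 CPM and not called. The mismatch repair list of 13 genes also held MGMT and the epithelial surface gene EPCAM, which enter its counts. Of the 13, 2 (15.4%, beside 18.3% of all genes) were higher in RL-95-2 and 3 (23.1%, beside 16.7%) in HEC-1-A. These shares were near the background, and the numbers moved when a library was left out. MSH3, which binds larger loops, was at 26.2 and 23.5 against 2.43 and 6.23 CPM (6.28-fold, log2 2.65, SE 0.44, adjusted p = 0.0054 by edgeR), whereas MSH6, which binds single mismatches, was not called (67.2 and 68.7 against 94.1 and 115 CPM, log2 -0.62). MSH6 passed with no transfection term (-0.62) and without the RL-95-2 mimic (-0.48) or control library (-0.76). No methylation was measured here.

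Imprinted genes were called in 13 of 24 tested. In RL-95-2 it was 8 (33.3%, beside 18.3% of all genes) and in HEC-1-A 5 (20.8%, beside 16.7%). The HEC-1-A number fell without the HEC-1-A mimic library and rose without the RL-95-2 control library. PEG10, a gene derived from a retrotransposon, was at 0.574 and 0.693 against 124 and 164 CPM (226-fold) and IGF2, a growth factor, at 0.423 and 0.313 against 25.6 and 61.5 CPM (111-fold). L3MBTL1 was 35.7-fold and SLC22A18 9.52-fold higher in HEC-1-A. Most cancer-testis genes were too low to be tested, 27 of 60 having 0 counts in all libraries and 12 being tested. TEX15, a germ cell gene, was at 0.634 and 1.05 against 38.4 and 72.1 CPM (64.7-fold) and MAGEC2 had 0 counts against 8.07 and 5.56 CPM.

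Nucleic acid sensing and antigen presentation genes were higher in RL-95-2 in 22 of 39 tested (56.4%) and in HEC-1-A in 4 (median log2 fold change -1.25). Without the HEC-1-A mimic or control library, 16 or 11 were higher in RL-95-2 and 2 or 3 in HEC-1-A. IFI16, a DNA sensor, was at 9.63 and 8.69 against 217 and 107 CPM (16.7-fold). CASP1, the inflammasome protease, had 0 counts against 5.36 and 12.3 CPM, and its neighbour CASP4 was at 5.92 and 5.74 against 62.5 and 42.7 CPM (8.85-fold). DHX58, a relative of RIG-I, was at 0.0906 and 0.134 against 12.7 and 8.26 CPM. HLA-B was 12.7-fold and HLA-F 68.3-fold higher in RL-95-2, although reads of the variable and alike HLA genes are divided between them with uncertainty. Their partner B2M was at 408 and 504 against 483 and 527 CPM and not called. NLRC5, which switches on such genes, went the other way, at 75.4 and 78.8 CPM in HEC-1-A against 14.1 and 16.6 CPM (5.04-fold). The DNA sensor genes listed as MB21D1 (cGAS) and TMEM173 (STING) were below 1 CPM in all 4 libraries.

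Some genes of like function that differed between the lines are neighbours on a chromosome. Neighbour runs and the zinc finger genes below were examined after earlier results were seen and have no test of their own. Only genes tested were placed in order, so neighbours in a run may have untested genes between them. Leaving out genes low in both lines can join runs that these genes would break. Members at 0 counts in a line passed the low-count filter through the other line alone. Along the chromosomes, 251 of 13763 ordered genes tested fell into 72 runs of at least 3 neighbours that were all called and at least 4-fold higher in the same line, 31 runs with 102 genes in HEC-1-A and 41 runs with 149 genes in RL-95-2. The longest run had 9 genes and lay on chromosome 1 from 152302165 to 153422583 (GRCh38.p14), in the order FLG, FLG2, IVL, SPRR3, SPRR1B, SPRR2D, PGLYRP4, S100A9 and S100A8, all higher in RL-95-2. The call of FLG2 was lost on both FPKM scales (log2 -0.07 and -0.54) and that of SPRR2D with no transfection term, and the run would be broken there. FLG2, SPRR1B, SPRR2D and PGLYRP4 were not tested at a minimum of 1 CPM in 2 libraries. Other squamous runs of RL-95-2 were the kallikreins KLK5, KLK6, KLK8, KLK9 and KLK10 on chromosome 19 and SERPINB5, SERPINB13, SERPINB7 and SERPINB2 on chromosome 18. Calls were lost for KLK8 without the HEC-1-A mimic library (log2 -4.04), for KLK9 without that library and with no filter on low counts, and for SERPINB13 on log2(FPKM + 1) (-0.25). HOXD10 to HOXD13 formed a run on chromosome 2, with HOXD10 to HOXD12 at 0 counts in HEC-1-A, and HOXD12 lost its call with no filter on low counts. On chromosome 4, chemokine and growth factor genes next to each other went opposite ways. CXCL8, CXCL1, CXCL3 and CXCL2, neutrophil-attracting chemokines, were higher in RL-95-2, with CXCL1 at 0.483 and 0.268 against 314 and 133 CPM (570-fold). CXCL3 lost its call without the HEC-1-A mimic (log2 -3.77) or control library (-3.10). EREG, AREG and BTC, ligands of the EGF receptor that follow along the chromosome, were higher in HEC-1-A, with EREG at 499 and 602 against 0.948 and 0.325 CPM (931-fold) and AREG at 59.1 and 101 against 18.5 and 5.96 CPM (7.30-fold). Runs of HEC-1-A included AKR1C1 to AKR1C4 on chromosome 10 and GSTM4, GSTM2 and GSTM1, glutathione transferases, on chromosome 1, each of the 3 at 0 counts in RL-95-2 and near-identical in sequence.

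Many zinc finger (ZNF) genes encode repressors with a KRAB domain and lie in clusters on chromosome 19. Numbered ZNF genes were 23 of the 193 named genes detected in RL-95-2 only and 5 of the 111 detected in HEC-1-A only. They were 422 of the 15957 genes tested, which include features without a name. Of 210 numbered ZNF genes tested on chromosome 19, 44 (21.0%) were at least 4-fold higher in RL-95-2 and 5 (2.38%) in HEC-1-A. Elsewhere it was 15 of 212 (7.08%) and 17 (8.02%), and among other genes of chromosome 19 it was 8.25% and 4.78%. The 10.5% and 9.44% of all genes stand beside these shares. Of 23 ZNF genes detected in RL-95-2 only, 20 lay on chromosome 19. A run of 6 there, from 12014715 to 12156734, held ZNF433, ZNF878, ZNF844, ZNF788, ZNF20 and ZNF625, of which ZNF788 lost its call on log2(FPKM + 1) (log2 -0.17). ZNF844 had 0 counts in HEC-1-A and 34.6 and 24.6 CPM in RL-95-2 (at least 376-fold), ZNF433 0 counts against 6.58 and 6.65 CPM and ZNF625 0 counts against 5.56 and 4.38 CPM. ZNF20 was detected in both lines, at 1.54 and 1.54 against 7.41 and 6.61 CPM (4.53-fold). Near-identical zinc finger repeats make the division of reads within such clusters uncertain.

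**Figure D5:**
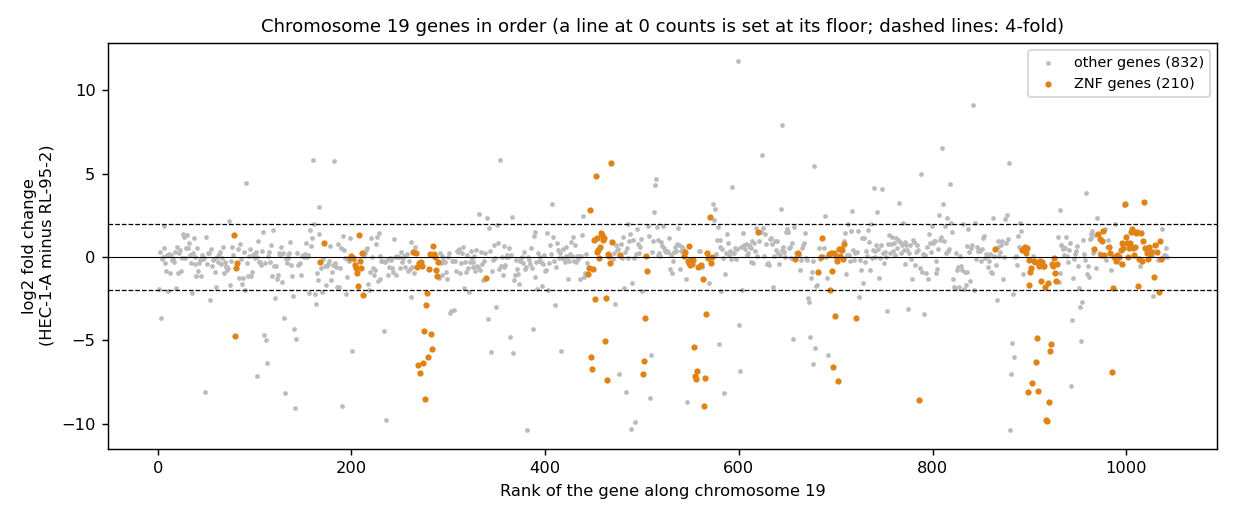
Log2 fold change (HEC-1-A minus RL-95-2) of each named gene tested on chromosome 19, in chromosomal order, with the 210 ZNF genes in orange and other genes in grey, and dashed lines at 4-fold. The orange points below the lower line, at least 4-fold higher in RL-95-2, stand in groups among ZNF genes near 0, with few above the upper line.

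The promoters of genes with 0 counts in a line were read from RefSeq (GRCh38.p14), as the 250 bases before the start, to show how CpG-rich they are. They are reference sequence and not that of these cells. Each is printed 5′ to 3′ on the strand of its gene, with every CG in capitals, for 3 leading genes of metabolism and the cell surface and for 3 genes of the chromosome 19 run.
PHGDH (chr1:119711684-119711933, plus strand): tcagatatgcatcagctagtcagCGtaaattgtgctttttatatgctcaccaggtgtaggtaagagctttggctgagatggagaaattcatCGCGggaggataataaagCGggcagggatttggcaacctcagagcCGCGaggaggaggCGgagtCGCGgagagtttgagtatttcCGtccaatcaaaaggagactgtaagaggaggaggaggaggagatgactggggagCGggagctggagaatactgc
ME1 (chr6:83431052-83431301, minus strand): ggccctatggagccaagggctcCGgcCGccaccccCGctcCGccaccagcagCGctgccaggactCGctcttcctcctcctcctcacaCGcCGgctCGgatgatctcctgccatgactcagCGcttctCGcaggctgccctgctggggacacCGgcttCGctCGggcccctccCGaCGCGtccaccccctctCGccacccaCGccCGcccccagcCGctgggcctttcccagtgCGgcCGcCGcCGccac
DPP4 (chr2:162074216-162074465, minus strand): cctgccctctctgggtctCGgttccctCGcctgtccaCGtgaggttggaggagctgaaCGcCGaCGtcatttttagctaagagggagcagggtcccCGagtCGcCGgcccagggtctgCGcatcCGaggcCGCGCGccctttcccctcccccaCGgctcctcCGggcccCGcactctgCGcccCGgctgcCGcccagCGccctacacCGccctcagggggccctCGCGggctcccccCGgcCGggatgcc
ZNF433 (chr19:12035680-12035929, minus strand): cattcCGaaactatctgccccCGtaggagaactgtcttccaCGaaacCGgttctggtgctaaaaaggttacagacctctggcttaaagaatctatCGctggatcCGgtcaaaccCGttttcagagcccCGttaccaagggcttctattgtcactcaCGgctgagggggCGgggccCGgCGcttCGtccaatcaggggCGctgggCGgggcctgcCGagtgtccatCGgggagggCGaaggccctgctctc
ZNF844 (chr19:12064481-12064730, plus strand): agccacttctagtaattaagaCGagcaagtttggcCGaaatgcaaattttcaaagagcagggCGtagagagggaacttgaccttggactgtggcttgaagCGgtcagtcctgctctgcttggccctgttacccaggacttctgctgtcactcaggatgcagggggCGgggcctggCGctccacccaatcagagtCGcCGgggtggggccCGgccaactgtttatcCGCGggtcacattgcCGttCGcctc
ZNF625 (chr19:12156735-12156984, minus strand): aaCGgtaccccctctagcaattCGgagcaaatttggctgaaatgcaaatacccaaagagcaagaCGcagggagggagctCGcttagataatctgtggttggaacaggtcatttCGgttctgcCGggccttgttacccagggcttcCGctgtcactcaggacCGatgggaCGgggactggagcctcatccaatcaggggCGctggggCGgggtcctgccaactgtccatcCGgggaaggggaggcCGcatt
The 6 windows held 11, 25, 26, 18, 13 and 13 CG in that order. A window counted as CpG-rich at a GC content of at least 50% and an observed over expected CG ratio of at least 0.6, which all 6 met. So did 77.5% of 7959 tested genes with a single matched start, 46.3% of 67 genes detected in HEC-1-A only and 61.7% of 107 detected in RL-95-2 only. Among ZNF genes it was 73.0% of 289 tested and 63.2% of 19 detected in RL-95-2 only. Both sets detected in 1 line only thus had a lower share of CpG-rich windows than the genes tested, as a description with no test. These shares do not cover all chromosomes, and the chromosome left out is named under the other observations.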

How the data were processed

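Poly(A) RNA of 4 libraries was sequenced, 2 per line. For each gene the authors deposited a raw count and an FPKM value. CASAVA, HISAT2 and GRCh38 (hg38) are named in the submitters' processing notes; which counter, annotation and strand setting were used is not given in the sources used here, so reads of overlapping, antisense or near-identical genes cannot be told apart. Of 22494 features, 2963 had no count and the symbols of 27 read as dates; 18173 matched RefSeq GRCh38.p14 by symbol and 891 by synonym. Unmatched features were kept in the totals and the tests without being named. Library totals lay between 33575882 and 46220053.

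The test on counts used edgeR 4.0.16 under R 4.3.3, with TMM scaling (factors 0.974 to 1.07), a low-count filter by line, a quasi-likelihood F test of line with transfection as a term, and an FDR of 0.05. The fit left 1 residual degree of freedom beside 5.44 prior ones. Fold changes are HEC-1-A minus RL-95-2, with a prior count of 0.125 in the fit and 2 within a transfection. Where a line had 0 counts in both libraries, the fold given is a bound, the mean CPM over the mean floor of 3 counts per library. Where it had 1 to 3 counts, the ratio has an exact 95% counting interval. Calls of at least 4-fold used the fitted fold for all genes.

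The members and gene lists were chosen with earlier results of these data known. Named genes were the 12 largest folds per direction at 50 CPM or more, the 12 highest genes detected in 1 line only per line, up to 6 members per list and direction (at least 4-fold and 5 CPM in each library of the higher line), the 6 largest folds per direction among the 300 most expressed features, and the main genes of a pathway. Some that meet the rule are not described. Genes of neighbour runs were chosen after their values were seen, as were ubiquitin, malic enzyme and zinc finger genes. No list was tested as a set. On simulated data of 15957 genes, the fit recovered 40.3% of 67 genes changed 2-fold, 94.0% of 67 changed 4-fold and 100% of 66 changed 8-fold, with 4 false calls. The changed genes had a mean above 5 CPM, and the simulated spread followed the trend over genes, with no mimic effect. These numbers therefore do not cover genes with low counts or a wide spread between libraries. Alternatives were DESeq2 1.42.0, limma-voom and limma 3.58.1 on log2(FPKM + 1) and log2(FPKM + 0.1), RLE and total scaling, other filters, no transfection term and each library left out (with no transfection term).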

Additional observations from a re-analysis of the deposited data

How the results depend on the processing

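With 1 library left out, genes higher in HEC-1-A numbered 1608 to 5156 and genes higher in RL-95-2 numbered 1851 to 5390. They were 1608 and 1851 without the HEC-1-A mimic, 1780 and 1897 without the HEC-1-A control, 4869 and 5179 without the RL-95-2 mimic, and 5156 and 5390 without the RL-95-2 control library. Limma on log2(FPKM + 1), where the pseudocount shrinks low genes, called 440 and 666 genes at least 4-fold higher in HEC-1-A and RL-95-2. Genes detected in HEC-1-A only numbered 197 at a minimum of 1 CPM and 43 at 20 CPM, and in RL-95-2 only 336 and 81. The other settings that use all 4 libraries (DESeq2, limma-voom, RLE and total scaling, filters, log2(FPKM + 0.1), no transfection term) kept the numbers of calls over all genes, at any fold and at least 4-fold, within 1.5 times their values, apart from log2(FPKM + 1) above. Calls within lists moved further. In HEC-1-A, carbohydrate enzymes went from 9 to 15 with DESeq2, epithelial identity genes from 1 to 3 with DESeq2 and log2(FPKM + 0.1) and to 2 with total scaling, log2(FPKM + 1) or no transfection term, type II keratins from 2 to 1 with DESeq2, log2(FPKM + 1), a minimum of 1 CPM or no transfection term, leukocyte markers from 0 to 1 or 2 and cancer-testis genes from 1 to between 0 and 3. In RL-95-2, receptor tyrosine kinases went from 17 to 11 at a minimum of 1 CPM, carbohydrate enzymes from 7 to 11 on log2(FPKM + 0.1), type II keratins from 4 to 2 with DESeq2, mismatch repair genes from 2 to 1 with RLE scaling, voom and both FPKM scales, leukocyte markers from 2 to 1, neural markers from 1 to 0 or 2 and claudins from 0 to 1. The signs that turned were those of the medians of mesenchymal genes (0.38) and neural markers (0.13) at a minimum of 1 CPM in 2 libraries, and of nuclear receptors (-0.03 on both FPKM scales, -0.12 without the HEC-1-A mimic library and -0.18 without the RL-95-2 mimic library). Among genes named here, those that turned were all uncalled: CDH2 (-0.31) and EGFR (0.32) without the RL-95-2 control library, KRT7 (-0.04 without the HEC-1-A control and -0.01 without the RL-95-2 mimic library), and HOXA10 (0.04) and SHMT2 (-0.17) without the RL-95-2 mimic library. The cause of these changes was not tested. The transfection term pairs control with control and mimic with mimic; without this pairing 3151 and 3495 genes were called. With 2 libraries per line, and 0 to 3 counts in the lower line of many genes, depth limits folds to bounds and intervals.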

Other observations

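The median fold change differed between chromosomes, a pattern seen after other results and with no test. The median log2 fold change, HEC-1-A minus RL-95-2, was -0.66 over 462 genes tested on chromosome 8 (-0.71 in the controls and -0.62 in the mimics), where 14.5% were at least 4-fold higher in RL-95-2 and 6.71% in HEC-1-A. It was 0.45 over 779 genes on chromosome 3 (0.44 and 0.48), where 6.80% were at least 4-fold higher in RL-95-2 and 13.0% in HEC-1-A. The other chromosomes listed lay between, with 0.37 over 190 genes on chromosome 18, 0.35 over 549 on chromosome 9 and -0.29 over 1397 on chromosome 1. DNA copy number was not measured in these files. Genes on chromosome 8 were left out of the shares of CpG-rich windows, which therefore do not describe that chromosome.

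ENO2, a glycolytic enzyme also used as a neuroendocrine marker, was at 98.5 and 88.2 CPM in HEC-1-A and 14.6 and 7.20 CPM in RL-95-2 (9.06-fold, log2 3.18, SE 0.31, adjusted p = 0.00057 by edgeR). The other 9 neural and neuroendocrine markers were at most 1.46 CPM, and INSM1, NEFL and NEFM had 0 counts in all libraries. Of gut and liver markers, SERPINA1 stood at 10.9 and 15.2 against 3.0 and 2.98 CPM (4.29-fold) and VIL1 at 2.69 and 3.60 CPM against 0.0769 CPM and 0 counts, while CDX1, CDX2, AFP, TTR and GPA33 had 0 counts in all libraries.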
